A study of Homo sapiens with 4 samples.

Results

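The ERK feedback inhibitors described here are 10 genes, DUSP4, DUSP5, DUSP6, SPRY1, SPRY2, SPRY4, SPRED1, SPRED2, PHLDA1 and IL17RD. They were chosen by name, as genes that ERK signalling switches on and whose products damp the same pathway, and all probe sets that the platform annotation assigns to them were read. They make up 10 of 19775 genes named on the array and 10 of the 13794 genes that averaged a log2 intensity of 5 or more (an intensity of 32), the level minimum used throughout and the meaning of "measured" and of "all genes" here. RNA came from 2 established human melanoma lines, A375 and SK-MEL-28, which both carry an activating BRAF mutation. Each line was transfected with a negative control siRNA or with an siRNA for ZIC5, a zinc-finger transcription factor, and collected after 48 h, which gave 4 groups of 1 array each. A difference is the log2 intensity under ZIC5 siRNA less that under control siRNA in that line. Since each group is 1 array, no replicate stands behind such a difference and none was tested.

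Mutant BRAF drives the kinases MEK and ERK without a growth factor, and ERK then induces the genes that hold it in check. The DUSP proteins remove phosphate from ERK, DUSP6 in the cytoplasm and DUSP4 and DUSP5 in the nucleus. Sprouty (SPRY) and SPRED proteins act at the membrane between growth factor receptors, RAS and RAF. IL17RD, also called SEF, binds fibroblast growth factor receptors and retains active ERK in the cytoplasm, and PHLDA1 is a pleckstrin homology-like protein that responds strongly to ERK. In BRAF-mutant melanoma, transcripts of this family are used as a readout of pathway output.

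Start-site windows are shown for the 5 members whose intensity was higher by at least 0.58 log2 units (1.49-fold) in both lines. RefSeq windows from GRCh38.p14 run from 250 bases before to 50 bases after a gene's annotated start, 300 bases in all, and are written along the gene's strand. Of the 10 members 8 matched this table, through 13 windows, and DUSP4 and DUSP5 did not. Capitals mark matches on either strand to 6 motifs of factors downstream of ERK or related to ZIC proteins: AP-1 (TGANTCA), CRE (TGACGTCA), ETS (CNGGAAG), EGR (GCGNGGGCG), a GLI-type motif (GACCACCC) and the CArG box bound by SRF.
SPRY4, chr5:142324198-142324497, minus strand: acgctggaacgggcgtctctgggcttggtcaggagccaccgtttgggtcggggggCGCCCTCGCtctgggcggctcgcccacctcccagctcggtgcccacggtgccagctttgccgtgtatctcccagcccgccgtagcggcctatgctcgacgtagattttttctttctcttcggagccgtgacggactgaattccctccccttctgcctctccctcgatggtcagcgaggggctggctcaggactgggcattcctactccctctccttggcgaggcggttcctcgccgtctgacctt
DUSP6, chr12:89352452-89352751, minus strand: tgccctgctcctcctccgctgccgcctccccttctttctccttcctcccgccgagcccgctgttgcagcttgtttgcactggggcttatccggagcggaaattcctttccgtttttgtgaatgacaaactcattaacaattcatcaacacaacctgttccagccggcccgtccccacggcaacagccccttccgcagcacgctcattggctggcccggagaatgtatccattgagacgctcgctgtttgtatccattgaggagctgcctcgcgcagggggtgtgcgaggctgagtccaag
PHLDA1, chr12:76031727-76032026, minus strand: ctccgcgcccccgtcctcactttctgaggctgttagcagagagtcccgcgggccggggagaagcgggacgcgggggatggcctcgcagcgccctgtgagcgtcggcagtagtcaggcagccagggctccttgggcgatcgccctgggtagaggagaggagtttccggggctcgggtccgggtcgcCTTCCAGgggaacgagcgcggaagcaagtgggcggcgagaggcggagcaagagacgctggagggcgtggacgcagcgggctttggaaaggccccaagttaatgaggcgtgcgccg
SPRED1, chr15:38252586-38252885, plus strand: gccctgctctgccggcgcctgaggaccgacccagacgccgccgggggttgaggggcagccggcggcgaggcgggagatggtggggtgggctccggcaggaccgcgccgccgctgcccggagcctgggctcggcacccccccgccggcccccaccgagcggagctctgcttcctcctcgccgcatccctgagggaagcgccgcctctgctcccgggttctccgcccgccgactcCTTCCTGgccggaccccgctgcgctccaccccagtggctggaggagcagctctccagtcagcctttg
SPRED2, upstream start, chr2:65432550-65432849, minus strand: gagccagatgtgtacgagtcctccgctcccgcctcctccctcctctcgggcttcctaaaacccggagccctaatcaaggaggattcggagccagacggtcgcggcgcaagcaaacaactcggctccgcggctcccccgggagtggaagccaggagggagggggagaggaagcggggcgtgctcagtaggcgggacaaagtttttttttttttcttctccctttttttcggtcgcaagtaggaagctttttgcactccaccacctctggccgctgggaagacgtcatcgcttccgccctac
SPRED2, downstream start, chr2:65366729-65367028, minus strand: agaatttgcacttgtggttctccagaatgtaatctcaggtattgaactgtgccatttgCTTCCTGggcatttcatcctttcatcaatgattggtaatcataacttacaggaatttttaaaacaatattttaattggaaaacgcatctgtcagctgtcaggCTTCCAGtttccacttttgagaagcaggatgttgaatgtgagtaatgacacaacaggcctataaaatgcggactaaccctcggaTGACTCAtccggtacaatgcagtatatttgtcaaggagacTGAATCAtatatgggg

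No motif was common to these windows. SPRY4 held 1 EGR match, PHLDA1 and SPRED1 held 1 ETS match each, and DUSP6 and the upstream SPRED2 start held none of the 6 motifs. The downstream SPRED2 start held 2 AP-1 and 2 ETS matches, with the AP-1 matches beginning 6 bases before and 34 bases after the start. Over the 13 windows of the 8 members, AP-1 matched in 1 and in 7.71% of all 35116 windows of this length, ETS in 7 (33.6%), EGR in 3 (9.43%), and CRE (1.85%), the GLI-type motif (0.974%) and the CArG box (1.29%) in 0. SPRY1, which did not share the pattern of intensities, held 2 ETS matches and 1 EGR match at its downstream start. Such a match is a stretch of letters and not a measured binding site. The windows of members were 63.0% G and C at the median, against 58.7% over all windows.

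Median intensity lay between 38.4 and 39.4 on the 4 arrays. The ZIC5 probe set read 16.8 with control and 14.1 with ZIC5 siRNA in A375, and SK-MEL-28 gave 21.4 and 15.5, all under the level minimum, so it gives no check on the knockdown. Of the 8 melanocyte markers chosen, 7 were measured and all 7 exceeded an intensity of 32 in SK-MEL-28. In A375 the lineage markers SOX10, S100B and MITF were present. MLANA (13.9 with control siRNA) and TYRP1 (7.51) were at the low end of the scale there, and PMEL (32.4) and TYR (33.5) near it. The summed melanocyte markers were 1751 and 2316 in A375, and SK-MEL-28 gave 46522 and 43146. The summed haematopoietic markers lay between 80.5 and 93.7 and the summed endothelial markers between 108 and 131 on the 4 arrays. Epithelial markers summed to 4691 or more in A375, where KRT18 made up most of the sum, and to 643 or less in SK-MEL-28. Summed fibroblast markers (4 genes) read 413 with control and 227 with ZIC5 siRNA in A375, and SK-MEL-28 gave 1102 and 738, with most of the gap from LUM (162 and 14.9, then 875 and 498). With ZIC5 siRNA the melanocyte sum was lower for SK-MEL-28 and higher for A375. That A375 rise rested on SOX10 (895 with control and 1660 with ZIC5 siRNA). MITF (357 and 235), S100B (413 and 334) and TYR (33.5 and 26.7) were lower there. MLANA, PMEL and TYRP1 were slightly higher, at intensities of 35.9 or less. The part of the marker genes of any list in the results was not tested.

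Most ERK feedback genes had higher intensity with ZIC5 siRNA. In A375, 9 of 10 members were higher, against 48.5% of all genes, 8 were higher by at least 0.58 (12.3% of all genes) and 5 by at least 2-fold (3.89%). In SK-MEL-28, 7 were higher (50.2% of all genes), 5 by at least 0.58 (4.28%) and 1, SPRY4, by at least 2-fold (0.776%). The members' median difference was 0.98 for A375 and 0.54 for SK-MEL-28, against -0.01 and 0.00 over all genes. In both lines together 7 members were higher (31.5% of all genes), and DUSP6, SPRY4, SPRED1, SPRED2 and PHLDA1 were higher by at least 0.58 (2.02% of all genes). The members were picked with earlier results of these arrays known, so these counts describe them and are not independent evidence.

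**Figure D1:**
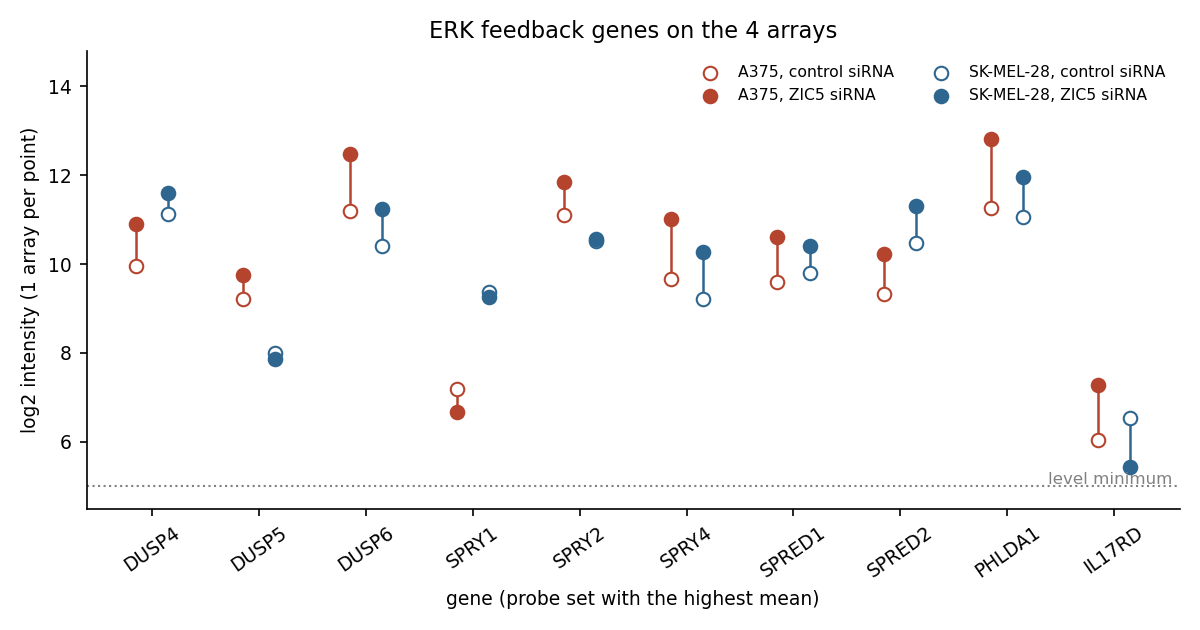
Log2 intensity of the 10 ERK feedback genes on the 4 arrays, for the probe set of each gene with the highest mean. Open circles are control siRNA and filled circles ZIC5 siRNA, red for A375 and blue for SK-MEL-28, and a line joins the arrays of a cell line. In A375 the filled circle lies above the open one for 9 genes, with SPRY1 the exception, and IL17RD slopes up for A375 and down for SK-MEL-28. Heights should be compared within a gene only.

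The cytoplasmic ERK phosphatase DUSP6 was higher with ZIC5 siRNA in both lines on all 3 of its probe sets. In A375 its intensity was 2335 on the control array and 5674 on the ZIC5 siRNA array, and SK-MEL-28 gave 1351 and 2434 in the same order. On this probe set both ZIC5 siRNA arrays lay above both control arrays, while on 208893_s_at the SK-MEL-28 array with ZIC5 siRNA (941) lay under the A375 control (974). The difference was 1.28 in A375 (2.43-fold) and 0.85 in SK-MEL-28 (1.80-fold), and the 3 DUSP6 probe sets ranged from 1.28 to 1.46 and from 0.85 to 1.02. The SD between them was 0.09 in each line, less than is usual for a gene with several probe sets (median over 6635 genes 0.25 for A375 and 0.15 for SK-MEL-28).

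DUSP4, a nuclear phosphatase of ERK and other MAP kinases, depended on the probe set. The one with the highest mean, 204015_s_at, read 997 and 1916 in A375, and SK-MEL-28 gave 2234 and 3109, so both SK-MEL-28 arrays lay above both A375 arrays. This was a difference of 0.94 and 0.48. On 204014_at the differences were 0.45 and 0.08, and on 226034_at they were 0.07 and -0.25. Averaged over its 3 probe sets DUSP4 differed by 0.49 for A375 and 0.10 for SK-MEL-28, so it no longer reached 0.58 in A375.

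DUSP5, the nuclear phosphatase that acts on ERK alone, had 1 probe set. Its intensity was 591 and 867 in A375, and SK-MEL-28 gave 254 and 234. The A375 arrays were the higher pair, and they differed by 0.55, just under the 0.58 limit, while SK-MEL-28 differed by -0.12.

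Among the Sprouty genes, SPRY4 was the member with the highest difference in SK-MEL-28. The intensity of SPRY4 on its single probe set was 813 and 2065 in A375, and SK-MEL-28 gave 592 and 1239. Both ZIC5 siRNA arrays exceeded both controls, by 1.35 (2.54-fold) in A375 and 1.07 (2.09-fold) in SK-MEL-28. These differences were above those of 98.2% and 99.4% of all genes in the respective line.

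SPRY2, a Sprouty gene that dampens signalling from growth factor receptors to RAS, was higher in A375 with little difference in SK-MEL-28. Its intensity was 2185 and 3684 in A375, and SK-MEL-28 gave 1473 and 1524, which are differences of 0.75 and 0.05. SPRY1 ran the other way. Its intensity was 145 and 102 in A375, and SK-MEL-28 gave 660 and 610, so the groups separated by line, and its differences were -0.52 and -0.11. The second SPRY1 probe set, 230212_at, differed by -0.12 and 0.06. Of the 3 Sprouty members, SPRY4 alone reached 0.58 in both lines. SPRY3, outside the members and close to the level minimum, differed by -0.35 and 0.08.

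Both SPRED members, whose products bring a RAS-inactivating protein to the membrane, were higher in both lines. Their relative SPRED3, outside the members, differed by 0.48 and 0.13. SPRED1 read 774 and 1562 in A375, and SK-MEL-28 gave 886 and 1349. On this gene's probe set 226837_at the ZIC5 siRNA arrays were again the higher pair, with differences of 1.01 and 0.61. The 3 SPRED1 probe sets ranged from 0.33 to 1.01 in A375 and from 0.56 to 0.81 in SK-MEL-28, and 235074_at (0.33 and 0.56) missed 0.58 in both lines. On 244439_at the SK-MEL-28 array with ZIC5 siRNA (81.7) lay under the A375 control (94.6). SPRED2 read 647 and 1199 in A375, and SK-MEL-28 gave 1422 and 2514. Here both SK-MEL-28 arrays exceeded both A375 arrays, and the siRNA differences of 0.89 and 0.82 were the most alike between lines of any member, 0.07 apart. The other 2 SPRED2 probe sets read between 6.82 and 21.8, under the level minimum, with differences of 0.02 and 0.32 on 212466_at and 0.02 and 0.01 on 214026_s_at.

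PHLDA1, a pleckstrin homology-like protein, had the greatest A375 difference of the members and the most probe sets. On 217996_at its intensity was 2437 and 7224 in A375, and SK-MEL-28 gave 2132 and 3962. Both ZIC5 siRNA arrays lay above both controls, by 1.57 (2.96-fold) and 0.89 (1.86-fold). The 6 PHLDA1 probe sets ranged from 0.34 to 2.34 in A375 and from -0.43 to 1.18 in SK-MEL-28, with SDs of 0.71 and 0.59, against the usual 0.25 and 0.15. The low end of both ranges came from 225842_at, which read 3364 and 4270 in A375, and SK-MEL-28 gave 1198 and 887. The other 5 probe sets were higher in both lines, by at least 1.43 in A375 and at least 0.51 in SK-MEL-28.

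IL17RD was the member whose differences opposed each other most. Its intensity on 227997_at was 66.3 and 156 in A375, and SK-MEL-28 gave 93.1 and 43.4. The A375 array with ZIC5 siRNA was the highest and the SK-MEL-28 array with ZIC5 siRNA the lowest, so the difference was 1.24 in A375 (2.36-fold higher) and -1.10 in SK-MEL-28 (2.14-fold lower). All 4 values lay above 32. The second probe set, 229263_at, read between 8.28 and 8.75 and carries no usable level. Whether the lines differ here was not tested.

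**Figure D2:**
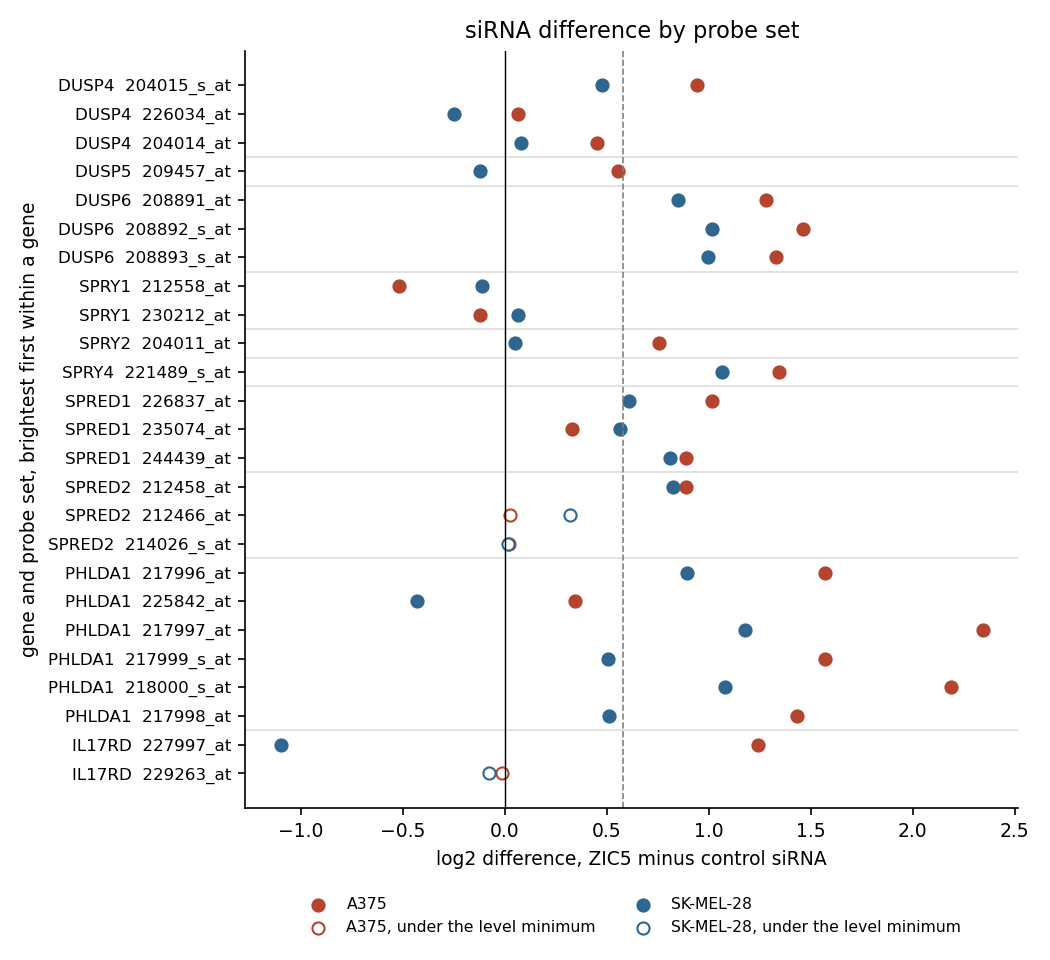
Log2 difference, ZIC5 siRNA minus control siRNA, for each of the 25 probe sets of the ERK feedback genes in A375 (red) and SK-MEL-28 (blue), ordered by mean level within a gene. Open circles mark 3 probe sets under the level minimum and the dashed line marks 0.58. The 3 DUSP6 probe sets lie together, while those of DUSP4 and PHLDA1 spread, with 1 of each below 0 in SK-MEL-28.

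By probe set, 22 of the 25 were at the level minimum. Of these, 20 were higher in A375, 17 in SK-MEL-28 and 16 in both. The shares over all probe sets were not computed, and by gene they were 48.5%, 50.2% and 31.5%. PHLDA1 alone gave 6 of the 22, and DUSP4, DUSP6 and SPRED1 gave 3 each, so these genes weigh most. The medians of the 22 were 0.98 for A375 and 0.54 for SK-MEL-28. Probe sets of a gene share its RNA and are not replicates of the condition.

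The lines were also compared in the size of the differences. For all 10 members the difference was larger in absolute size in A375 than in SK-MEL-28, which was so for 64.9% of all genes. This rests on 1 probe set per gene. Of the 22 probe sets at the level minimum 19 had the larger difference in A375, and DUSP4 226034_at, PHLDA1 225842_at and SPRED1 235074_at did not. With all probe sets of a gene averaged it held for 8 of 9 members, SPRED2 being the exception (0.31 and 0.38). The gap between lines, A375 minus SK-MEL-28, was 2.34 for IL17RD, 0.70 for SPRY2, 0.67 for DUSP5 and PHLDA1 and 0.47 for DUSP4. For DUSP6 it was 0.43, for SPRED1 0.41, for SPRY4 0.28 and for SPRED2 0.07. SPRY1 alone had a negative gap, -0.40, since it was lower by more in A375. An interaction of siRNA and line could not be fitted with 1 array per group.

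**Figure D3:**
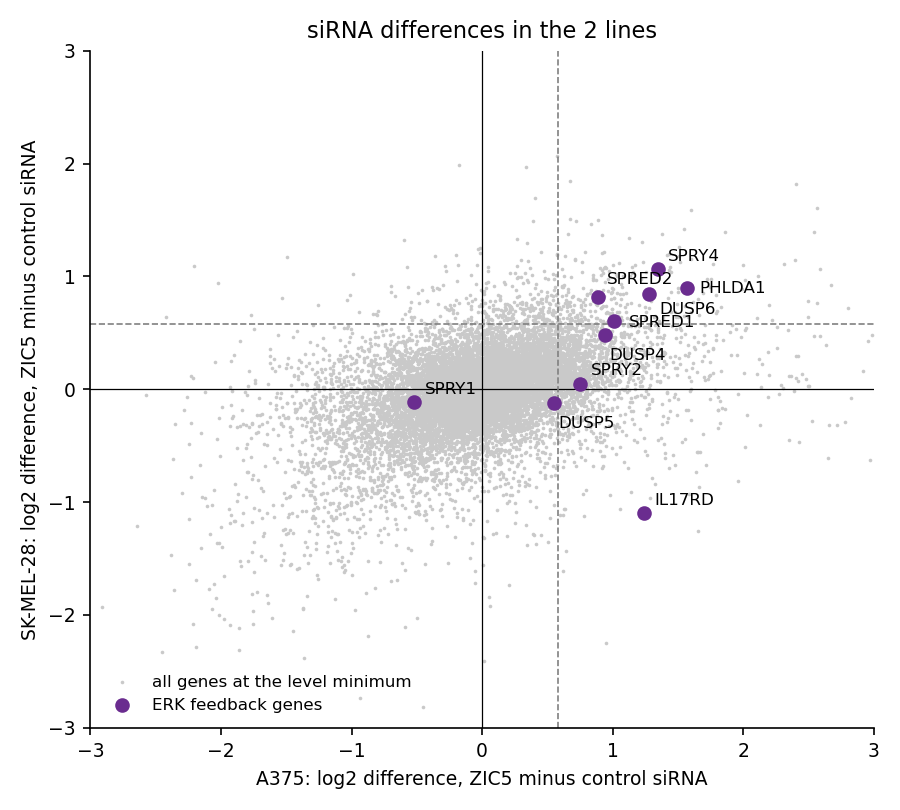
Log2 difference, ZIC5 siRNA minus control siRNA, in A375 (horizontal) and SK-MEL-28 (vertical) for the genes at the level minimum (grey) and the ERK feedback genes (purple). Dashed lines mark 0.58, and 22 of 13794 genes lie outside the axes. DUSP6, SPRY4, SPRED1, SPRED2 and PHLDA1 lie above both dashed lines, and IL17RD lies at the lower right.

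An siRNA effect common to both lines was fitted in limma with line as a second term, which leaves the 2 lines as the replicates. The greatest effects were those of PHLDA1 (1.23, SE 0.20), SPRY4 (1.21, SE 0.16) and DUSP6 (1.06, SE 0.16), and each had the same sign in 2 of 2 lines. The limma adjusted p was 0.268 for SPRY4 and DUSP6 and 0.270 for PHLDA1. SPRED2 had an effect of 0.86 (SE 0.14), SPRED1 of 0.81 (SE 0.18) and DUSP4 of 0.71 (SE 0.17), with limma adjusted p-values of 0.270, 0.301 and 0.316. Effects were 0.40 (SE 0.22) for SPRY2, 0.22 (SE 0.24) for DUSP5, -0.32 (SE 0.20) for SPRY1 and 0.07 (SE 0.62) for IL17RD, with adjusted p-values from 0.475 to 0.967. At an adjusted p under 0.05, 0 members and 0% of all genes were called. At an unadjusted p under 0.05 limma gave 6 members, all higher, and 5.91% of all genes on the higher side. Those 6 were DUSP4, DUSP6, SPRY4, SPRED1, SPRED2 and PHLDA1, and DUSP4 was not among them when its 3 probe sets were averaged. SPRED2 also dropped out when all 3 of its probe sets were averaged, those under the level minimum included (limma unadjusted p = 0.0575), and it then no longer passed for the line (limma adjusted p = 0.0726).

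The level of several feedback genes differed between the lines. On the control arrays 4 of the 10 members were at least 2-fold apart, against 22.2% of all genes. SPRY1 was 4.54-fold higher, DUSP4 2.24-fold higher and SPRED2 2.20-fold higher in SK-MEL-28, and DUSP5 was 2.32-fold higher in A375. In the limma fit, where the 2 transfections stand in for replicates of a line, 5 members passed an adjusted p of 0.05, against 27.7% of all genes. SPRY1 (A375 minus SK-MEL-28 effect -2.38, SE 0.20, limma adjusted p = 0.00771), SPRED2 (-1.10, SE 0.14, adjusted p = 0.0158) and DUSP4 (-0.93, SE 0.17, adjusted p = 0.0320) were higher in SK-MEL-28. DUSP5 (1.55, SE 0.24, limma adjusted p = 0.0224) and DUSP6 (1.005, SE 0.16, adjusted p = 0.0239) were higher in A375.

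The remaining members did not pass for the line, with limma adjusted p-values of 0.0522 for SPRY2 (0.92, SE 0.22), 0.0690 for SPRY4 (0.60, SE 0.16), 0.136 for PHLDA1 (0.53, SE 0.20), 0.473 for IL17RD (0.68, SE 0.62) and 0.980 for SPRED1 (0.01, SE 0.18). Probe sets bear on these values too. On the control arrays the DUSP4 line differences ran from -1.16 to -0.12, those of DUSP6 from 0.79 to 1.05, those of SPRY1 were -2.18 and -1.33, and those of PHLDA1 ran from -0.71 to 1.49. On these arrays the direction was shared by all probe sets of DUSP4, DUSP6 and SPRY1 but not by those of PHLDA1 or SPRED1. The SPRED1 probe sets gave -0.20, 0.02 and 1.02, and on the last of these, 244439_at, A375 was also higher by 1.10 with ZIC5 siRNA. On the ZIC5 siRNA arrays the DUSP4 values were -0.70 on 204015_s_at, 0.26 on 204014_at and 0.04 on 226034_at, so the DUSP4 line call rests on 1 of 3 probe sets. With all probe sets fitted in place of 1 per gene, the probe sets with the highest mean of DUSP4 and DUSP6 no longer passed (limma adjusted p = 0.0643 and 0.0511). In that fit DUSP6 208893_s_at (1.21, SE 0.16, limma adjusted p = 0.0402) did pass. So did PHLDA1 225842_at (1.88, SE 0.24, limma adjusted p = 0.0364), both higher in A375.

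**Figure D4:**
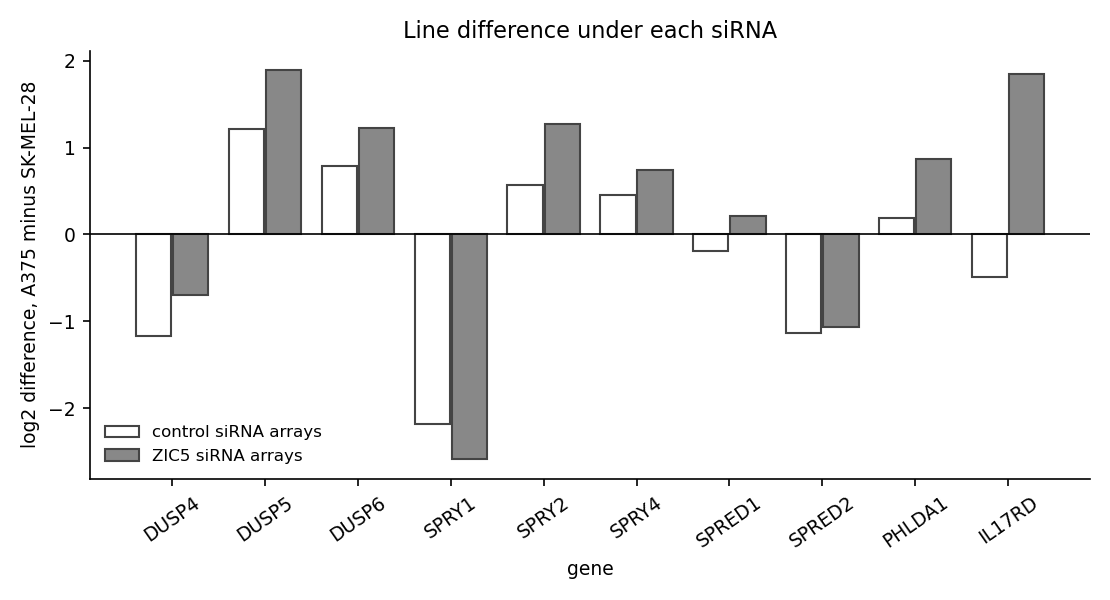
Log2 intensity of A375 minus that of SK-MEL-28 for the ERK feedback genes, on the control siRNA arrays (white bars) and the ZIC5 siRNA arrays (grey bars), 1 array per line and bar. SPRY1, SPRED2 and DUSP4 lie below 0 and DUSP5, DUSP6, SPRY2 and SPRY4 above 0 under both siRNAs, while SPRED1 and IL17RD have opposite signs under the 2 siRNAs.

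Under ZIC5 siRNA the line differences were -2.59 for SPRY1, -1.07 for SPRED2, -0.70 for DUSP4, 1.89 for DUSP5 and 1.22 for DUSP6. IL17RD went from -0.49 on the control arrays to 1.85 on the ZIC5 siRNA arrays. SPRED1 went from -0.20 to 0.21.

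Levels of each member can be put in order over the groups, here on the probe set with the highest mean. Some other probe sets of DUSP4, DUSP6, PHLDA1, SPRED1 and SPRY1 gave other orders. For DUSP6, SPRY4 and PHLDA1 the order from high to low was A375 with ZIC5 siRNA, SK-MEL-28 with ZIC5 siRNA, A375 control and SK-MEL-28 control, and for SPRED1 the last 2 were exchanged. On PHLDA1 225842_at SK-MEL-28 with ZIC5 siRNA was lowest (887), and on 217999_s_at it lay under the A375 control (554 against 602). On PHLDA1 217997_at the A375 control (473) lay under the SK-MEL-28 control (775). The gap between the ZIC5 siRNA array of SK-MEL-28 and the A375 control array of DUSP6 was small (2434 against 2335). SPRED2 and DUSP4 ran from SK-MEL-28 with ZIC5 siRNA through SK-MEL-28 control and A375 with ZIC5 siRNA to A375 control. DUSP5 and SPRY2 were highest in A375 with ZIC5 siRNA, then A375 control, with the SK-MEL-28 arrays close together at the low end. SPRY1 ran from SK-MEL-28 control through SK-MEL-28 with ZIC5 siRNA and A375 control to A375 with ZIC5 siRNA. IL17RD ran from A375 with ZIC5 siRNA through SK-MEL-28 control and A375 control to SK-MEL-28 with ZIC5 siRNA. Without replicate arrays no neighbours in these orders can be separated by their spread.

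Other genes of the pathway were read from 5 lists of 126 gene names in all, with PAQR3 also entered under its other name RKTG. The lists were drawn up from general knowledge with earlier results of these arrays known. Of the names 103 were measured, and the others are not analysed here. Of 28 ERK-induced transcription factors and targets measured, 21 had higher values in A375 (48.5% of all genes) and 16 in SK-MEL-28 (50.2%). Higher by at least 0.58 were 10 and 5 of them (12.3% and 4.28% of all genes), and the medians were 0.42 and 0.07. Those higher by at least 0.58 in both lines numbered 4, against 2.02% of all genes. The early growth response factors EGR1 and EGR3 and the nucleoside enzyme UPP1 stood at the high end. EGR1 differed by 4.48 and 0.45, EGR3 by 2.41 and 1.82 and UPP1 by 2.50 and 0.78. At the low end were the ETS factor ETV1 (-0.15 and -1.16, the signs on 1 and 3 of its 4 probe sets), the growth factor HBEGF (-0.53 and -0.08) and SRF (-0.15 and -0.07, on 1 of 2 probe sets in each line). In the limma fit 0 of the 28 passed an adjusted p of 0.05. At an unadjusted p under 0.05 there were 5 higher (5.91% of all genes) and 0 lower.

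Of 12 other dual-specificity phosphatases measured, 7 had higher values in A375 (48.5% of all genes) and 6 in SK-MEL-28 (50.2%). The medians were 0.17 and -0.02, and 0 were higher by 0.58 in both lines, against 2.02% of all genes. DUSP7, a cytoplasmic ERK phosphatase of the DUSP6 subfamily, read 357 and 190 in A375, and SK-MEL-28 gave 145 and 78.9. Its differences of -0.91 and -0.88 were opposite in sign to those of DUSP6, and both of its probe sets shared that sign. The inducible nuclear phosphatases DUSP2 (1.60 and -0.27) and DUSP1 (1.27 and -0.04, on 1 of 2 probe sets in A375) were higher in A375, and DUSP10, a phosphatase of p38 and JNK, differed by 0.78 and 0.27. DUSP9 (-1.21 and 0.00) and DUSP16 (-0.55 and -0.26, on 1 of 3 probe sets in A375) were lower in A375. By limma 0 of the 12 passed an adjusted p of 0.05, and DUSP7 alone had an unadjusted p under 0.05.

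Among 19 other negative regulators measured, 11 had higher values in A375 (48.5% of all genes) and 10 in SK-MEL-28 (50.2%). The medians were 0.08 in each line, and 1 was higher by at least 0.58 in both lines (2.02% of all genes). The ubiquitin ligase CBLB (2.20 and 0.75) and the RAS GTPase-activating protein RASA2 (0.997 and 0.52) had the highest mean differences, followed by LRIG3 (0.93 and -0.19). The tyrosine phosphatase PTPRR (-1.35 and -0.45), the RAF-tethering protein PAQR3 (-0.39 and -1.37) and the adaptor DOK1 (-0.88 and 0.00) had the lowest. In limma 0 of the 19 passed an adjusted p of 0.05. At an unadjusted p under 0.05, 2 were higher (5.91% of all genes) and 2 lower.

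Of 22 measured genes of the cascade from RAS to ERK, 13 had higher values in A375 (48.5% of all genes) and 12 in SK-MEL-28 (50.2%). The medians were 0.02 and 0.05, and 0 were higher by at least 0.58 in both lines (2.02% of all genes). The phosphatase PTPN11, which passes receptor signals to RAS, differed by -1.04 and -0.94 (on 3 of 4 probe sets in SK-MEL-28), and the RAS relative RRAS by -1.05 and -0.93, the only 2 of the 22 that were lower by at least 0.58 in both lines. MAPK3, which encodes ERK1, differed by -0.51 and -0.34. The exchange factor SOS1 (0.87 and 0.42, on 3 and 2 of 4 probe sets), the scaffold SHOC2 (0.91 and 0.34) and the adaptor SHC1 (0.47 and 0.73) stood at the high end. By limma 0 of the 22 passed an adjusted p of 0.05. At an unadjusted p under 0.05, 3 were higher (5.91% of all genes) and 3 lower.

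Of 22 receptors and ligands upstream measured, 9 had higher values in A375 (48.5% of all genes) and 6 in SK-MEL-28 (50.2%), with medians of -0.05 and -0.18. In both lines together 0 were higher by at least 0.58 (2.02% of all genes). The counts of higher genes moved with the processing, from 4 to 11 in A375 and from 2 to 11 in SK-MEL-28. Other level limits also change how many genes are counted. The growth factor PDGFD (-2.36 and -1.78) and the fibroblast growth factor receptor FGFR4 (-1.14 and -0.65, on 2 of 3 probe sets in each line) were lower by at least 0.58 in both lines. PDGFD had 1 probe set, which read 30.2 in A375 with ZIC5 siRNA. With intensities under 32 set to 32 its A375 difference was -2.28. FGFR4 was dim, at 43.1 to 95.4. The receptor AXL differed by -1.24 and -0.54, the second sign on 1 of 2 probe sets and at only 56.4 and 38.9 in SK-MEL-28. FGFR1 (0.43 and 0.75, on 5 of 6 probe sets in each line), the ligand FGF1 (-0.33 and 0.89) and FGF5 (0.14 and 0.35, on 2 of 3 probe sets in each line) had the highest mean differences. FGF1 (45.0 to 83.5) and FGF5 (46.4 to 78.5) were dim as well. In limma 0 of the 22 passed an adjusted p of 0.05. At an unadjusted p under 0.05, 1 was higher (5.91% of all genes) and 3 lower.

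**Figure D5:**
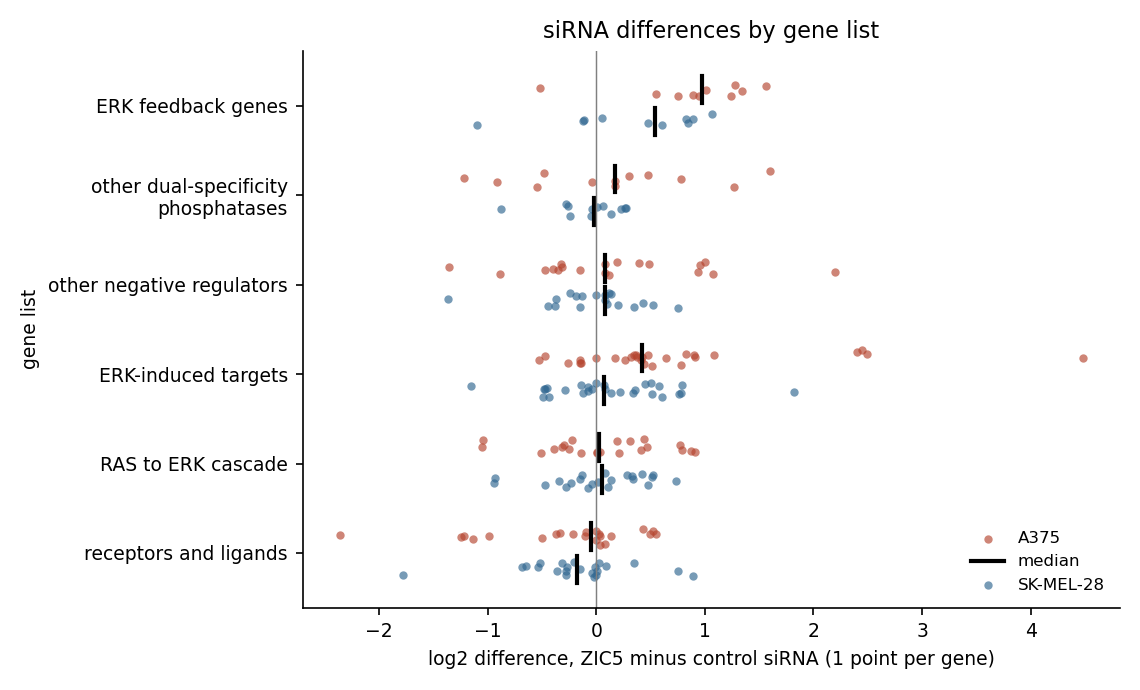
Log2 difference, ZIC5 siRNA minus control siRNA, for each measured gene (point) of the ERK feedback genes and of 5 related lists in A375 (red) and SK-MEL-28 (blue), with black bars at list medians. The ERK feedback genes have medians of 0.98 and 0.54, and the other lists have medians from -0.05 to 0.42 in A375 and from -0.18 to 0.08 in SK-MEL-28.

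The genes most like the group as a whole were sought by Euclidean distance to the members' median over 3 values, the siRNA difference in A375 (0.98), that in SK-MEL-28 (0.54) and the line difference on the control arrays (0.00). MIGA2 (distance 0.09), AOPEP (0.10), TRIM35 (0.11), SCFD1 (0.13) and PHYH (0.13) were nearest. Of the members, SPRED1 was nearest to that median (0.21) and SPRY1 farthest (2.73). The measure rests on 4 arrays and describes their values only.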

How the data were processed

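RNA from 4 melanoma cultures, 1 per group, was hybridised to HG-U133 Plus 2.0 arrays from 100 ng of total RNA labelled with biotin, per the labels' protocols. The authors deposited a single intensity for each probe set. The tools named per the submitters' processing notes are RMA and Affymetrix Expression Console, and their versions are not given in the sources used here. Deposited intensity values run from 2.78 to 22531, so they are on a linear scale, and log2 was taken here.

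Gene names came from GEO's platform annotation: of 54613 probe sets, 41091 named 1 gene, 1801 several and 11721 none, and only the first were used. Entrez IDs matched RefSeq (GRCh38.p14) for 41037, with 0 symbols changed. Each gene was the probe set with the highest mean, and genes with a mean log2 of at least 5 were kept. A linear model with terms for siRNA and line (limma 3.58.1, R 4.3.3, eBayes on a mean trend) was fitted, with 1 residual and 2.85 prior degrees of freedom and Benjamini-Hochberg adjustment over all 13794 genes. With 1 residual degree of freedom, the spread behind its p-values is the gap between the siRNA differences of the lines, moderated by the prior. It is not a spread among replicate arrays of a group. The labels do not say that cultures were separate, so part of that gap may be technical. The fit was tested on simulated data.

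The members, lists and markers were chosen with earlier results of these data known. The text names all members with their probe sets, ZIC5, the 3 highest and 3 lowest genes of each list by mean difference and the 5 nearest genes. SPRY3 and SPRED3 are given in addition, as relatives of members. Alternatives were other level limits, a floor of 32, averaged probe sets, 3 array scalings, limma without trend or line block, and a fit of all probe sets. The mean over probe sets at the level minimum was added after the data were seen.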

Additional observations from a re-analysis of the deposited data

Results flagged for a closer look

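Some genes and probe sets had siRNA differences of opposite sign in the lines, which with 1 array per group was not tested. The gap, A375 minus SK-MEL-28 siRNA difference, was 2.34 for IL17RD and 0.67 for DUSP5. It was 0.78 for the PHLDA1 probe set 225842_at, 0.32 for the DUSP4 probe set 226034_at and -0.19 for the SPRY1 probe set 230212_at. Outside the members it was 1.88 for DUSP2, 1.31 for DUSP1, 1.12 for LRIG3, -1.22 for DUSP9 and -1.22 for FGF1.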

How the results depend on the processing

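The counts of members and the list counts of each line were recomputed under the alternatives. Averaging all probe sets of a gene left 5 members higher by 0.58 in A375 (8 in the report) and 3 by 2-fold (5 in the report), and 2 members 2-fold apart on the control arrays (4 in the report). That average takes in probe sets under the level minimum, drops IL17RD and puts SPRED2 at 0.31 and 0.38, so that 4 members were higher by 0.58 in both lines (5 in the report). Averaged over probe sets at the level minimum these counts were 7, 4 and 3. Without the line block, limma gave 3 members at an unadjusted p under 0.05 (6 in the report), namely SPRY4, SPRED1 and PHLDA1. With all probe sets fitted, 3 members passed for the line on their probe set with the highest mean (5 in the report), namely DUSP5, SPRY1 and SPRED2. SPRY2 also passed for the line with a minimum of 7, a floor of 32, probe sets averaged either way, quantile normalization and cyclic loess, with adjusted p-values from 0.0272 to 0.0483. Under every alternative run 0 members passed an adjusted p of 0.05 for siRNA, and the lowest adjusted p of a member was 0.113, with a minimum of 7. Of 156 values of single members under the alternatives, 152 stayed on their side of 0.58 and 4 fell below it, all for DUSP4 or SPRED2 with averaged probe sets, and 0 changed sign. Of 240 list counts, 211 stayed within 1.5 times and 29 did not, 11 of them with a minimum of 7 and 10 with all probe sets averaged. The line block pairs the control and ZIC5 siRNA arrays of a line, and the labels give no replicate numbers for any other pairing. The number of arrays limits the precision, and IL17RD, at 43.4 to 156, was the dimmest member.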
